A study of Mus musculus with 11 samples.

Results

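The accessible regions described here are those that stood at a gene boundary and had a peak in every one of 3 ATAC-seq peak lists of mouse lung macrophages. Peaks of the lists were merged into regions wherever they shared at least 1 bp, which gave 16069 regions. A region was kept when it held peaks of all 3 lists and lay within 1000 bp of either end of a RefSeq gene. The members were therefore chosen by the peak calls themselves, and 2373 regions were kept. These are called shared boundary regions below.

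The cells, alveolar macrophages resident in the lung (TRMs), had been sorted from C57BL/6 mice. The KP day 15 group had 4 samples and the KP day 30 group had 3 samples. Both came from mice given KP or KP-GFP cells through the tail vein, 15 or 30 days before the lungs were taken. KP cells are mouse lung adenocarcinoma cells. The naïve group had 4 samples from mice without tumour cells. Each group had 1 peak list, and the sources used here do not say whether the reads of its samples were pooled. The labels number 11 samples, although the series' design names triplicates. With 1 list a group no value has a replicate error, no test between conditions was possible, and no p-value is given. Intervals are 95% Wilson intervals for a share, Newcombe intervals for a difference of shares and order-statistic intervals for a median, and they cover counting error over regions or promoters only. In a sorted bulk sample, a region open in fewer cells and a region less open in every cell cannot be told apart.

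ATAC-seq uses a transposase that inserts sequencing adapters into DNA not covered by nucleosomes. Many mammalian genes start in CpG islands, stretches rich in unmethylated CpG where nucleosomes are kept away and general factors such as Sp1, NF-Y and ETS proteins bind in most cell types. Such promoters often serve a pair of genes transcribed in opposite directions. Macrophage identity genes, in contrast, depend largely on enhancers away from the start, where PU.1, C/EBP and AP-1 factors bind.

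The promoters of strongly accessible members show what these regions look like in sequence. The bases printed are the 250 before the annotated start, 5′ to 3′ on the gene's strand, from RefSeq on GRCm38.p6 (mm10). They were taken from the shared boundary regions with the highest naive −log10 p at a protein-coding gene, where such a window held a searched motif. Capitals mark matches on either strand to CCAAT or in reverse ATTGG, the NF-Y motif, to GGGCGG or in reverse CCGCCC, the GC box of Sp1-type factors, to CCGGAAG or in reverse CTTCCGG, the ETS motif, and to CACGTG, an E-box. Other searched motifs were left in lower case, such as GAGGAAG, a PU.1 motif, in the window of Cggbp1 and its reverse CTTCCTC in that of Pja2. Cggbp1 encodes a protein that binds CGG repeats (chr16:64851751-64852000, plus strand), Pja2 a ubiquitin ligase (chr17:64331884-64332133, minus strand) and Leprot an endosomal membrane protein (chr4:101647533-101647782, plus strand). Kbtbd8 encodes an adaptor of a CUL3 ubiquitin ligase (chr6:95117630-95117879, plus strand), Pkn2 a protein kinase (chr3:142882005-142882254, minus strand) and Rpa3 a subunit of replication protein A (chr6:8259142-8259391, minus strand). Stt3a encodes the catalytic subunit of the oligosaccharyltransferase (chr9:36767623-36767872, minus strand), and the window of Suco lies at chr1:161876683-161876932 (minus strand).
Cggbp1: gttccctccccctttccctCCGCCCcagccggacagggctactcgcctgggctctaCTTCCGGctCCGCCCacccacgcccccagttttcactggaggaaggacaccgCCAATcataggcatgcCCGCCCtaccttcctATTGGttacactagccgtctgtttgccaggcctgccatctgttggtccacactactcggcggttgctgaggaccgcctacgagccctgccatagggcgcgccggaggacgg
Pja2: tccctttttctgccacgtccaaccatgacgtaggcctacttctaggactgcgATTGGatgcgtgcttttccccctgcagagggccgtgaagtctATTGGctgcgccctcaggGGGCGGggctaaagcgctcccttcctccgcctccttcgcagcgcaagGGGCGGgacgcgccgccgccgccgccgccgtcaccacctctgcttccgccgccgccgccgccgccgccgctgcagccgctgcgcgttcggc
Leprot: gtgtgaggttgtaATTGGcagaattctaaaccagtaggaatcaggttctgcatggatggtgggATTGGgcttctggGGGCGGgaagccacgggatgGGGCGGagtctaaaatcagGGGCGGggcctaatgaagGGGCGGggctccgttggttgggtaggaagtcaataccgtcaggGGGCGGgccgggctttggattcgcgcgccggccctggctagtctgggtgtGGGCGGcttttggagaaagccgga
Kbtbd8: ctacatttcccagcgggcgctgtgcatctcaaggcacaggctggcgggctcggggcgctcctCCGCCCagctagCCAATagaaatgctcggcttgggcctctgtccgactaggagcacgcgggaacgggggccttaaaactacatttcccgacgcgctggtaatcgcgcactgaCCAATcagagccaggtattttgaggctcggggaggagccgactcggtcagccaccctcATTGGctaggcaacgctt
Stt3a: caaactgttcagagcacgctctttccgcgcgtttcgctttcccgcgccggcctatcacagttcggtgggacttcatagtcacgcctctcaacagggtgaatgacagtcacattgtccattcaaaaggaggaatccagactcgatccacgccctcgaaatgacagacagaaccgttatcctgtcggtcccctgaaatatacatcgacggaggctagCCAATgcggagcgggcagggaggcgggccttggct
Pkn2: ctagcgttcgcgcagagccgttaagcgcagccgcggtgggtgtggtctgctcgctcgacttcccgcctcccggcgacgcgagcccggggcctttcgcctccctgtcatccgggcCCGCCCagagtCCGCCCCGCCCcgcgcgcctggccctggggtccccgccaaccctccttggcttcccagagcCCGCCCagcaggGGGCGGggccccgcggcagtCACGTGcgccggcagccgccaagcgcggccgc
Suco: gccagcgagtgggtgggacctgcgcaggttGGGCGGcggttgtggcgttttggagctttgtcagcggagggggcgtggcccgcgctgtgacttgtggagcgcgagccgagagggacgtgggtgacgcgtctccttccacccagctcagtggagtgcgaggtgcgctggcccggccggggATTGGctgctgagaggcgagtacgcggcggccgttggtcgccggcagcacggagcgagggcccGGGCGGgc
Rpa3: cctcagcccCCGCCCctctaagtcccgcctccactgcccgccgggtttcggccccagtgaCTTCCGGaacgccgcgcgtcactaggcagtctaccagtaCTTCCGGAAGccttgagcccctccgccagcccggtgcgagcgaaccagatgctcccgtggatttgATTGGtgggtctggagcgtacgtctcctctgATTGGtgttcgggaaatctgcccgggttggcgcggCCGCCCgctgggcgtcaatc

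Of these 8 windows, 7 held a GC box, all but that of Stt3a, and 7 held CCAAT, all but that of Pkn2. Since a motif was needed for a window to be shown, these counts only describe the windows printed. A match is a description of the letters and not a binding site.

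The members were a minority of the accessible gene boundaries and the larger part of what the day 30 list still held. Of 8383 boundary regions of any list, 2373 (28.3%) had a peak in all 3, and of the 7760 with a naive peak the share was 30.6%. A further 3326 had peaks in the day 15 and naive lists and none at day 30, and 1998 had a naive peak alone. At day 15 the members took up 2445 peaks, 22.5% of that list (21.7 to 23.3). At day 30 they took up 2443, or 72.9% (71.4 to 74.4), and in the naive list 2436, or 16.5% (15.9 to 17.1). These shares follow partly from the list lengths, 10861 peaks at day 15, 3352 at day 30 and 14731 in the naive list. The background levels of the lists corresponded to 93.5, 82.2 and 39.2 tags per 10 kb of genome at day 15, at day 30 and in the naive list, and the lowest summit pileup of a peak was 9, 9 and 6 tags, so the lists also differed in how small a peak they could hold.

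Which naive boundary regions were found in all lists went with how strong they were in the naive list. From the weakest to the strongest decile of naive −log10 p, 3.22, 4.25, 7.09, 7.86, 17.9, 26.8, 37.6, 46.1, 64.2 and 90.7% of them were members. Naive strength is one of the values the members were selected on, so this is a description. At equal strength, regions away from any gene end were found in all lists less often in each of the 10 deciles, for instance 16.9% against 37.6% at the boundaries in decile 7. The difference between boundary and other regions was 20.7 percentage points there (15.8 to 25.3). In decile 4 it was 1.99 points and its interval held 0 (−0.44 to 4.50), and in the other 9 deciles the interval lay above 0.

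**Figure D1:**
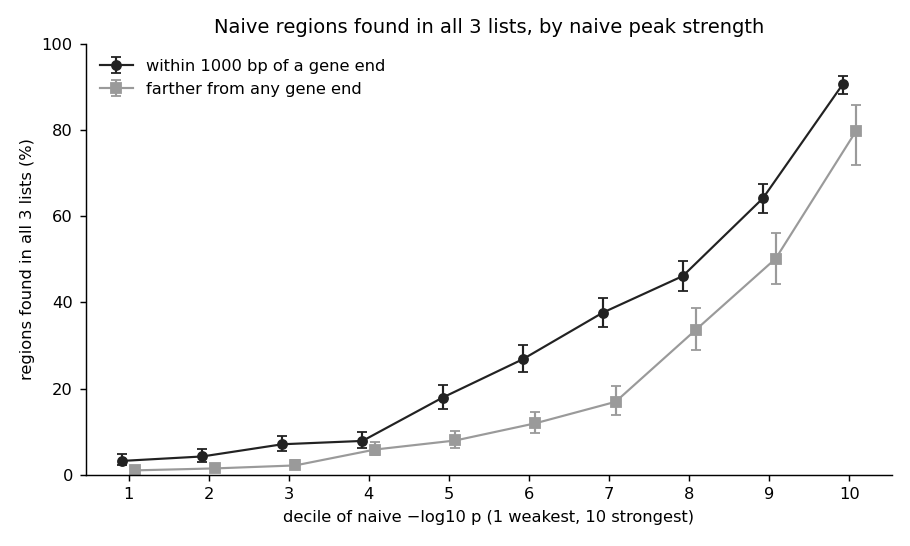
Share of naive regions found in all 3 lists (y axis, %) by decile of naive −log10 p (x axis), for regions within 1000 bp of a gene end (black circles) and farther away (grey squares), with 95% Wilson intervals. Both lines climb, and the boundary regions reach 90.7% in the strongest decile.

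Just inside the rule, with the lowest day 30 −log10 p, were regions at Cnih1, Arl5b with Nsun6, Irf2bpl, Sft2d2 and Slc38a6 with Trmt5, whose summit pileups at day 30 were 9, 10, 13, 11 and 10 tags. The region at Cnih1, which encodes a cargo receptor of the secretory pathway, had 19 tags at day 15, 9 at day 30 and 17 in the naive list. Just outside it were the strongest naive boundary regions with a day 15 peak and none at day 30, at Grhl1, Fggy, Ell2, Cab39l with Setdb2, and Vrk2. Ell2, a transcription elongation factor gene, had 41 tags at day 15 and 56 in the naive list, far more than Cnih1 in both lists. By distance, the members farthest from a gene end lay 994 bp from Aktip, 993 bp from Ctsz and 987 bp from Cep70. The nearest regions of all lists beyond the limit lay 1004 bp from Aldh3b1, 1006 bp from Gm52681 and 1007 bp from Gm31754. Few members were near that limit. Of all 2373, 2080 (87.7%, 86.3 to 88.9) reached over a gene end, and 87 lay more than 500 bp from one.

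The members were overwhelmingly gene starts. Strand was known for a neighbouring gene at 2020 of them, and 1993 of these (98.7%, 98.1 to 99.1) lay near a start, against 95.2% (94.4 to 96.0) of the boundary regions with day 15 and naive peaks alone and 91.9% (90.5 to 93.2) of those with a naive peak alone. The other 27 lay near the far end of a gene. Of these, 11 were also near a gene of unknown strand, which may start there, and 16 were not. Among the 16 were regions at Lars2, at Junb, an AP-1 subunit gene, at Nfkbia and Zc3h12a, which encode brakes on inflammatory signalling, and at Cxcr1, a chemokine receptor gene, each near no other gene. Summits sat just upstream of transcription. Among summits within 1000 bp of a protein-coding start, the median position was −57 bp at day 15 (n = 1888), −52 bp at day 30 (n = 1889) and −56.5 bp in the naive list (n = 1890). Upstream of the start lay 75.6% (73.6 to 77.5) of the day 15 summits, 72.9% (70.8 to 74.9) of the day 30 summits and 76.1% (74.1 to 78.0) of the naive ones. In the boundary regions with day 15 and naive peaks alone, 70.1% of naive summits (68.2 to 71.9) were upstream, and in those with a naive peak alone 57.8% (55.1 to 60.5).

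**Figure D2:**
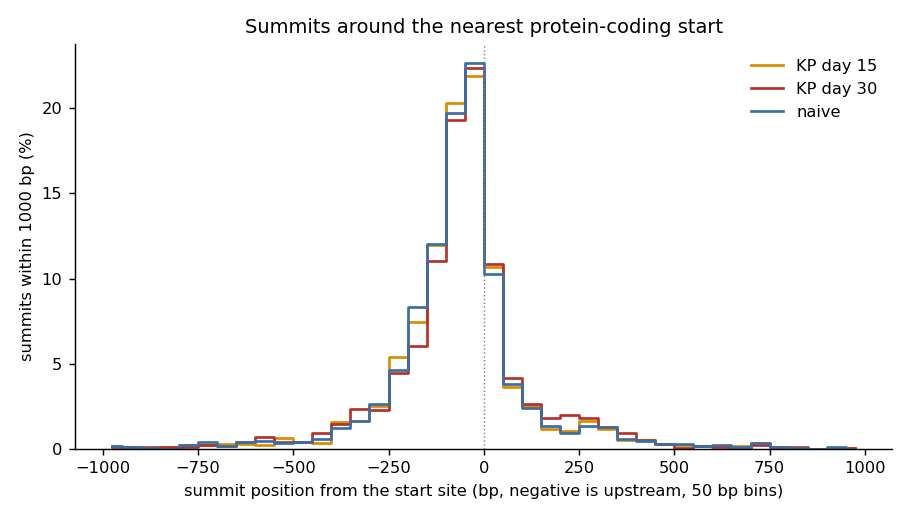
Position of the peak summits of shared boundary regions relative to the nearest protein-coding start (x axis, bp, 50 bp bins, negative upstream) as a share of the summits within 1000 bp (y axis, %), for KP day 15, KP day 30 and naive lists. In each list the highest bin is the one from −50 to 0 bp, with 21.9%, 22.3% and 22.6% of the summits.

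Overlapping peaks were merged into a region, so short distances between the peaks of a member follow in part from the rule and are given as a description. The median distance between summits was 35 bp for day 15 and naive peaks (32 to 38), 52 bp for day 30 and naive peaks (49 to 58) and 49 bp for day 30 and day 15 peaks (45 to 52). Shared regions away from gene ends gave 34.5, 57 and 48 bp. The day 30 summit lay within 50 bp of the naive one in 48.9% of members, and the day 15 summit in 58.8%. In 2200 members (92.7%) each list held exactly 1 peak, and in 77.3% of these (75.5 to 79.0) the day 30 peak lay wholly inside the naive one. The median peak was 507 bp wide at day 15, 334 bp at day 30 and 565 bp in the naive list.

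Starts of protein-coding genes on both strands were frequent near the members. Within 1000 bp of such starts on both strands lay 362 members (15.3%, 13.9 to 16.8), against 8.69% (7.78 to 9.69) of the boundary regions with day 15 and naive peaks alone and 5.31% (4.41 to 6.38) of those with a naive peak alone. Whether the genes read away from each other, with the region between their starts, was not checked. The differences were 6.57 points (4.85 to 8.32) and 9.95 points (8.19 to 11.7). The share did not climb with naive strength. Among members it was 13.3, 17.3, 14.9, 14.8 and 16.0% from the weakest to the strongest quintile of naive −log10 p, and at equal decile it was higher in members than in regions with day 15 and naive peaks alone in 9 of 10 deciles, with an interval above 0 in 4. The strongest such member stood near the starts of Rpa3 and Umad1 (chr6:8258992-8259709), with 38 tags at day 15, 19 at day 30 and 66 in the naive list. Others stood near the starts of Erp44, an endoplasmic reticulum thioredoxin, and Invs, a cilium protein (39, 28 and 63 tags), and of Tmem167 and Xrcc4, a DNA ligation factor (39, 26 and 62 tags). Near 2 or more genes of any type were 879 members (37.0%, 35.1 to 39.0), against 28.6% (27.1 to 30.1) and 24.1% (22.2 to 26) of the other classes in the same order. Distance was measured from the edges of a region, so a wider region reaches more gene ends. The median naive peak was 565 bp wide in members and 385.5 and 268 bp in the other classes. The part of width in the shares of this paragraph was not tested.

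CpG content set the members apart further. Of 2400 protein-coding promoter windows that overlapped a member (250 bp before to 50 bp after the start), 2191 (91.3%, 90.1 to 92.4) had an observed over expected CpG ratio above 0.6, against 83.1% (81.6 to 84.5) at regions with day 15 and naive peaks alone, 78.3% (75.8 to 80.6) at those with a naive peak alone and 28.7% (27.9 to 29.4) at promoters without a region in any list. The median ratio was 0.853 (0.845 to 0.861) in members, and 0.815 (0.803 to 0.824), 0.794 (0.778 to 0.809) and 0.327 (0.320 to 0.335) in these 3 classes. The 2400 member windows came from 2145 genes and 1840 regions. Regions with day 15 and naive peaks alone gave 2666 windows from 2218 regions, and those with a naive peak alone 1126 from 972. Windows at the same region can share sequence. All CpG and motif intervals, also those by decile, count each window as independent and may therefore be too narrow. The excess of 8.21 points over the regions with day 15 and naive peaks alone (6.39 to 10.0) was present at equal naive strength, with a higher share in members in 10 of 10 deciles and an interval above 0 in 7. The difference lay between 5.67 points in decile 5 and 22.2 points in decile 10. In that strongest decile, 90.4% of member promoters and 68.2% of promoters at regions with day 15 and naive peaks alone were CpG-rich, 651 of 720 and 45 of 66. Within the members, in 1391 regions, the rank correlation of the day 30 over naive pileup ratio with promoter GC content was 0.01 and with the CpG ratio 0.08, values that are descriptive since the regions share libraries.

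Of 19 motifs searched in the same windows, the letters CCAAT behaved differently from CpG. They stood on either strand in 50.8% of member promoters (48.8 to 52.8), 43.7% (41.8 to 45.6) at regions with day 15 and naive peaks alone and 36.0% (33.2 to 38.8) at those with a naive peak alone, against 38.2% of all 21263 protein-coding promoters. The first difference was 7.17 points (4.42 to 9.91). At equal naive strength members were higher in 2 of 10 deciles, and the interval held 0 in all 10. CCAAT instead went with naive strength itself, from 31.7% of promoters in the weakest decile of naive boundary regions (27.5 to 36.2) to 65.3% in the strongest (61.9 to 68.5). The ETS letters showed no such climb, with 21.3% in the weakest and 22.5% in the strongest decile.

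**Figure D3:**
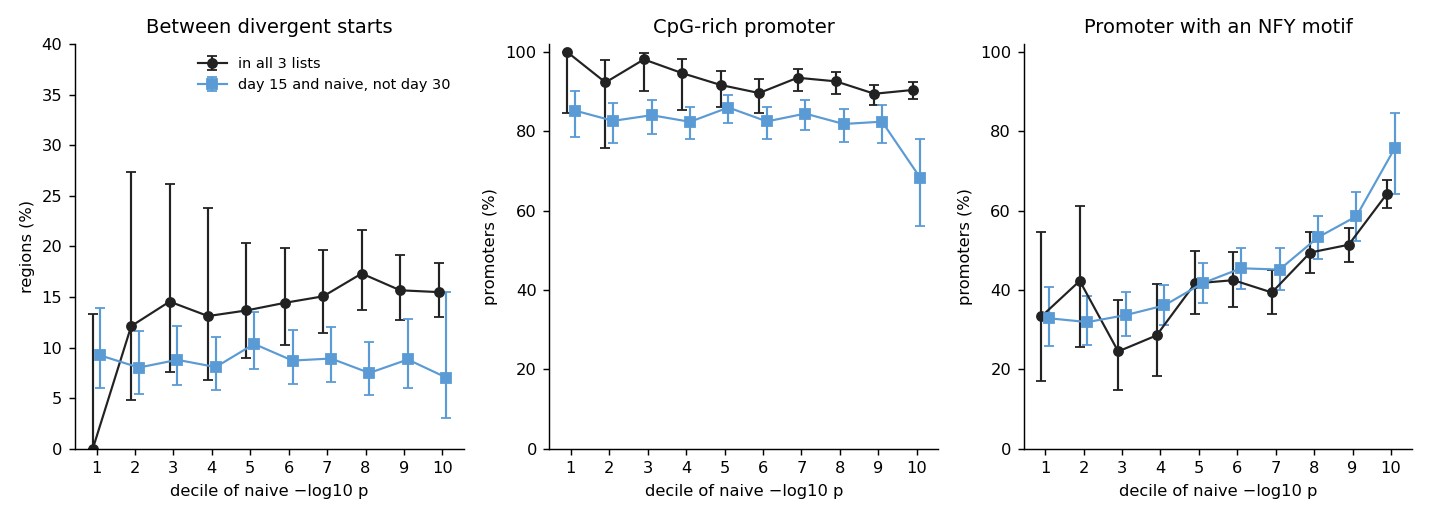
Shares by decile of naive −log10 p (x axes) for shared boundary regions (black) and boundary regions with day 15 and naive peaks alone (blue), with 95% Wilson intervals. The left panel, titled as between divergent starts, gives regions near protein-coding starts on both strands (% of regions). The middle panel gives CpG-rich promoters and the right panel promoters with CCAAT on either strand, the NFY motif (% of promoters). The black points lie above the blue ones in 9, 10 and 2 of 10 deciles.

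The GC box GGGCGG stood in 76.3% of member promoters (74.6 to 78.0), 70.9% (69.1 to 72.6) at regions with day 15 and naive peaks alone and 46.2% of all promoters, a difference of 5.44 points between the first pair (3.01 to 7.85), with an interval above 0 in 2 of 10 deciles at equal strength. TGACGTCA, the cAMP response element, stood in 4.21% of member promoters, 4.24% at regions with day 15 and naive peaks alone (difference −0.03 points, −1.14 to 1.09) and 2.23% of all promoters. The shorter TGACG, which starts that element, stood in 42.5% of member promoters, 38.4% at regions with day 15 and naive peaks alone (difference 4.17 points, 1.46 to 6.87) and 23.6% of all promoters, and was not compared at equal strength. TATAAA, the TATA box letters, stood in 4.42% of member promoters, 5.25% at regions with day 15 and naive peaks alone (difference −0.83 points, −2.02 to 0.36), 6.93% at regions with a naive peak alone (difference −2.51 points, −4.31 to −0.90) and 12.6% of all promoters. For motifs tied to macrophage enhancers the interval of the difference between members and regions with day 15 and naive peaks alone held 0. GAGGAAG, a PU.1 motif, was in 12.8% of member promoters and 12.8% of those at regions with day 15 and naive peaks alone (difference 0.01 points, −1.84 to 1.86), against 13.6% of all promoters. TGANTCA, the AP-1 motif, was in 4.00% of member promoters (3.29 to 4.86; difference 0.36 points, −0.70 to 1.44) and 6.99% of all promoters. GAAANNGAA, an IRF motif, was in 5.83% of member promoters (4.96 to 6.84; difference 0.32 points, −0.95 to 1.61) and 8.15% of all promoters. GGGANTTCC, an NF-kB motif, was in 3.00% of member promoters (2.39 to 3.76; difference 0.22 points, −0.70 to 1.17) and 1.84% of all promoters, and TTGCGCAA, a C/EBP motif, in 0.50% (0.29 to 0.87; difference 0.09 points, −0.30 to 0.50) and 0.22%. TTGCNNCAA, a C/EBP motif with a spacer, was in 1.1% of member promoters (0.77 to 1.63; difference −0.38 points, −1.02 to 0.27) and 1.79% of all promoters. Beside all promoters, the member shares were thus lower for the AP-1, IRF and TTGCNNCAA letters and higher for the NF-kB and TTGCGCAA letters. Median GC content was 63.7% in member windows and 56.3% in all promoters, and the part of base composition in these shares was not tested.

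The pileup of a shared boundary region differed between the lists, and this is described without a test because peak height decided membership. The median summit pileup was 29 tags at day 15, 17 at day 30 and 28 in the naive list. Above each list's genome-wide background level and divided by it, which scales for depth, the median excess was 14.5 at day 15, 9.33 at day 30 and 34.7 in the naive list. The median ratio over regions was 0.394 for day 15 over naive (0.390 to 0.399), 0.269 for day 30 over naive (0.265 to 0.274) and 0.678 for day 30 over day 15 (0.671 to 0.688). Scaling decides the size of these ratios: without it the day 15 over naive median was 0.940 and the day 30 over naive median 0.564. A scaled excess at most 0.5 of the naive one was seen in 80.9% of members at day 15 and 94.9% at day 30, with 70.7% of all regions with day 15 and naive peaks and 93.1% of all regions with day 30 and naive peaks as background, and nothing is read from these shares. In shared regions away from gene ends the medians were 0.413 (0.401 to 0.418), 0.296 (0.287 to 0.305) and 0.718 (0.695 to 0.738), so the lower pileups were not confined to gene boundaries.

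The order of the members was partly kept, with a rank correlation of scaled excess over the 2373 regions of 0.76 between day 15 and naive, 0.57 between day 30 and naive and 0.59 between day 30 and day 15, given as descriptions. Day 30 peaks spanned a narrow range. From the weakest to the strongest naive quintile the median day 30 pileup was 15, 16, 17, 18 and 22 tags, while the naive one was 17, 23, 28, 36 and 48 tags and the day 15 one 21, 24, 28, 32 and 40 tags. The median day 30 over naive ratio accordingly ran from 0.407 in the weakest to 0.199 in the strongest quintile. A region had to reach 9 tags to be in the day 30 list at all, so a low ratio could be seen only in regions with a high naive pileup.

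**Figure D4:**
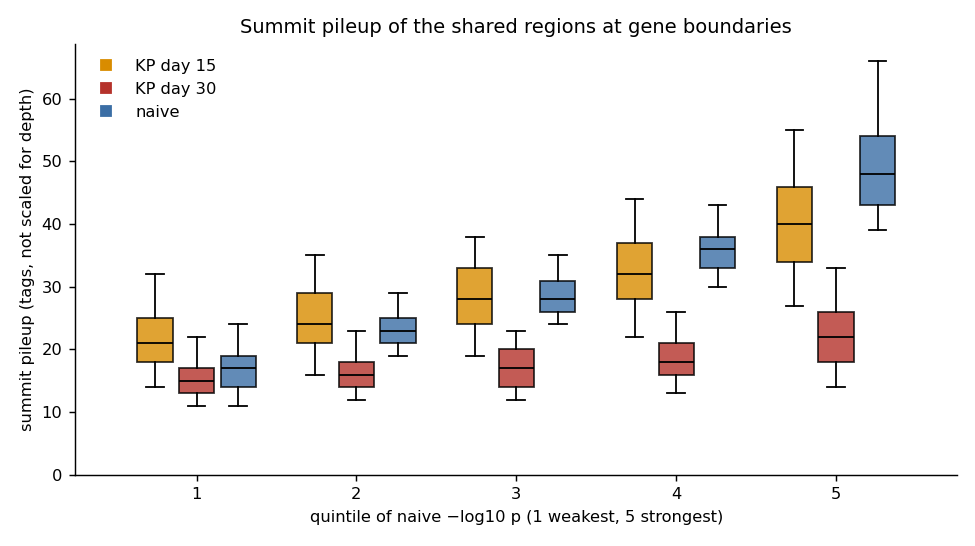
Summit pileup in tags, not scaled for depth (y axis), of the nuclear shared boundary regions by quintile of naive −log10 p (x axis), in the KP day 15, KP day 30 and naive lists. Boxes give the quartiles and median, whiskers the 5th to 95th percentile, and the day 30 medians (15 to 22 tags) vary less than the naive ones (17 to 48 tags).

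The strongest member of all by naive −log10 p stood at the pseudogene Gm10222 with Gm10925 and had 94 tags at day 15, 54 at day 30 and 99 in the naive list, a day 30 over naive ratio of 0.25. Whether reads of that region also map elsewhere, such as to mitochondrial DNA, was not tested. The members named next are the strongest at protein-coding genes. Mtmr4, a phosphoinositide phosphatase gene (chr11:87591688-87592414), had 61 tags at day 15, 26 at day 30 and 83 in the naive list. Zbtb20, a zinc finger repressor gene (chr16:42874965-42875949), had 63, 31 and 91 tags, and Stt3a (chr9:36767485-36768372), 61, 27 and 71 tags in the same order. Pja2 stood out within this set by its day 30 pileup, with 63, 42 and 82 tags (chr17:64331580-64332472). Among the 10 strongest at protein-coding genes, which also include Cggbp1, Leprot, Kbtbd8, Pkn2, Suco and Rpa3, the day 30 over naive scaled ratio ran from 0.13 at Rpa3 to 0.24 at Pja2.

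Only 2 members had a scaled day 30 excess at or above the naive one. Lars2, the mitochondrial leucyl-tRNA synthetase gene (chr9:123461720-123462254, at its far end), had 61 tags at day 15, 62 at day 30 and 27 in the naive list, a day 30 over naive ratio of 1.10. Sfi1 with Pisd-ps1 (chr11:3131958-3132572) had 56, 57 and 27 tags, a ratio of 1.01. The pileups of the 2 regions were alike in every list, while their local backgrounds were 3.80, 3.54 and 1.70 tags at Lars2 and 19.4, 16.1 and 9.28 tags at Sfi1 at day 15, at day 30 and in the naive list. Whether reads there map to more than 1 place in the genome was not tested. Among members at protein-coding genes with 1 peak in every list, next came Tnip2, an inhibitor of NF-kB signalling (18, 16 and 8 tags, 0.95), Ndufs5, a complex I subunit (15, 17 and 9 tags, 0.89), and Ccdc88c (28, 20 and 11 tags, 0.86). Exoc3l with 4931428F04Rik, Tex261, Pcif1, Prkrip1 and Mis18a followed at 0.85 to 0.77. All of these but the first pair had low naive pileups of 8 to 14 tags.

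At the other end of the same members, Asf1a, a histone chaperone gene (chr10:53596625-53597129), had 34 tags at day 15, 13 at day 30 and 55 in the naive list, a day 30 over naive ratio of 0.10. Marchf3 (44, 12 and 50 tags), Mms22l, a replication fork repair gene (27, 12 and 49 tags), Arl5b with Nsun6 (29, 10 and 37 tags) and Zfp51 (31, 12 and 45 tags) lay close to it, at 0.10 to 0.11. Med30, a Mediator subunit, 5430403G16Rik, Mdh1 with Wdpcp, Ap1s2 and Mfsd8 completed the 10 lowest at 0.11 to 0.12. Their day 30 pileups of 10 to 14 tags were close to the lowest a day 30 peak could have.

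Between the tumour time points most members were lower at day 30, and 209 of 2373 had a scaled day 30 excess at or above that of day 15. Among members at protein-coding genes with 1 peak in every list, the highest day 30 over day 15 ratio was at Hint1, a nucleotide hydrolase gene, with 17 tags at day 30 and 10 at day 15 (2.15). Hdac2, a histone deacetylase gene, had 29 and 20 tags (1.72), Nfat5, the osmotic stress factor gene, 21 and 15 tags (1.68), Apeh 21 and 16 tags (1.56), and Mis18a 23 and 18 tags (1.51). The lowest were Marchf3 with 12 and 44 tags (0.28), Mdh1 with 14 and 48 tags (0.30), Chd8, a chromatin remodeller gene, with 12 and 40 tags (0.31), Rangap1 with 12 and 40 tags (0.31), and Calr, which encodes calreticulin, with 12 and 39 tags (0.32).

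Counted by gene, 2715 of 21887 nuclear protein-coding genes (12.4%) had a member within 1000 bp of an end, and so did 35.7% of the 7613 with a naive boundary region. These 2 shares are the backgrounds for the gene lists below, whose genes were chosen with earlier results of these data known. Neither share is matched to a list for naive strength, with which membership went. A neighbouring gene can share the region. In all, 252 of 2733 listed genes had a member. Olfactory and vomeronasal receptor genes made up 1459 of the 2733, and 2 of them had a member. The total is therefore not set beside these 2 shares.

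Chaperone genes had the highest share of members among the lists at the reported list lengths, and not when the 3 lists were cut to equal length. Of 20 heat shock and chaperone genes, 17 had a naive boundary region and 13 a member, in 12 regions because Hspd1 and Hspe1 share one. In lists of equal length 7 of the 20 had a member, beside 5 of 14 MHC class I genes and 7.54% of all protein-coding genes. Hspa8, the constitutive cytosolic Hsp70, had 44 tags at day 15, 31 at day 30 and 47 in the naive list. Hspa5, the Hsp70 of the endoplasmic reticulum, had 44, 16 and 39 tags, and Hsp90aa1, an Hsp90 gene, 26, 23 and 19 tags. Hsf1, the heat shock regulator, and Hspa4 also had members, while Hsf2 and Hspa1a had none. The median day 30 over naive ratio over the 12 regions was 0.255, near the 0.269 of all members.

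Immediate early and AP-1 genes, which respond within minutes to stress and growth signals and also to tissue handling, had members at 11 of 25 genes, 20 with a naive boundary region, and at 3 of 25 in lists of equal length. Fos had 31 tags at day 15, 18 at day 30 and 36 in the naive list, Jun 44, 25 and 52 tags, and Atf3 25, 22 and 25 tags. Junb counted by a region 105 bp beyond its far end and Jund by one 698 bp from its start. Fosb and Fosl1 had no member. The median day 30 over naive ratio was 0.289. Antigen presentation through MHC class I had 7 of 14 genes, 10 with a naive boundary region. B2m, the invariant light chain, had 31 tags at day 15, 15 at day 30 and 38 in the naive list, and H2-K1 and H2-D1, the heavy chain genes, had 35, 13 and 16 tags and 28, 20 and 30 tags. The endoplasmic reticulum helpers Calr, Canx and Pdia3 and the peptidase gene Erap1 were the others, and H2-T23 and Tap1 had none. For MHC class II, 4 of 18 genes had a member: H2-DMa, the peptide exchange chaperone (32, 23 and 18 tags), and the regulators Rfxap, Nfya and Nfyb. H2-Aa and H2-Ab1, the chains of the class II molecule itself, had none. Of the genes with a naive boundary region, 55.0% (34.2 to 74.2) of immediate early genes had a member. The shares were 70.0% (39.7 to 89.2) for MHC class I and 44.4% (18.9 to 73.3) for class II. Only the class I interval lay above the 35.7% of all such genes.

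Genes of protein synthesis and energy supply were present in parts. All lists of this paragraph but the cell cycle genes were picked by symbol alone, so they also hold genes of other functions. Among those counted are Eif2ak3, a kinase gene, and Eif4ebp1, a translation repressor gene, under translation factors, and the assembly factor gene Ndufaf3 under oxidative phosphorylation. Translation factors had members at 24 of 71 genes, with Eef1a1, Eef1b2, Eef1e1 and Eef1g among them and Eef1a2 and Eef1akmt1 without, ribosomal proteins at 21 of 76, with Rpl10, Rpl13a, Rpl14 and Rpl15 among them and Rpl10a and Rpl11 without, and mitochondrial ribosomal proteins at 18 of 78. Oxidative phosphorylation had 24 of 96 and splicing factors 12 of 48, with Sf3b1 (27 tags at day 15, 13 at day 30 and 29 in the naive list) among them. Proteasome genes had 8 of 48. Of the genes with a naive boundary region, these lists had members at 44.4, 35.0, 34.6, 37.5, 30.0 and 25.0% in the order given, around the 35.7% of all such genes. Their median day 30 over naive ratios lay between 0.211 for mitochondrial ribosomal proteins and 0.302 for translation factors. Rab GTPases, switches of vesicle traffic, had 17 of 59, cell cycle genes 8 of 30, with Ccna2 (49, 26 and 66 tags at day 15, at day 30 and in the naive list) and Cdk1 (27, 21 and 34 tags) among them and Mki67 and Top2a without, and small nucleolar RNA host genes 5 of 17. Replication-dependent histone genes had 14 of 67, in only 8 regions because histone genes lie in pairs. Of the genes with a naive boundary region, Rab, cell cycle, small nucleolar RNA host and histone genes had members at 45.9, 42.1, 50.0 and 31.1%. Each of these intervals held 35.7%.

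Zinc finger genes, picked by a numbered Zfp symbol alone, had fewer of their naive boundary regions among the members. The count was 37 of 180 genes (20.6%, 15.3 to 27.0) beside 35.7% of all genes with a naive boundary region, not matched for naive strength. Their share of all 367 genes was 10.1%. Zfp143, the mouse gene of a promoter-binding factor, was among those with a member (47 tags at day 15, 21 at day 30 and 43 in the naive list), and Zfp1 and Zfp101 were not. Of 1459 olfactory and vomeronasal receptor genes, which are used mainly in the nose, 2 had a member. That of Vmn1r4 lies at the end of Nt5c3 as well, and that of Olfr433 lay 826 bp from its start.

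Signalling lists were mixed. Inflammatory mediators had members at 7 of 29 genes, 36.8% of the 19 with a naive boundary region and so near the 35.7% of all such genes, and at 3 in lists of equal length. They were Tlr2 (36, 20 and 29 tags at day 15, at day 30 and in the naive list), Tlr4 (28, 17 and 33 tags), Myd88, Rel, Relb, Nfkbia and Tnfaip3. The cytokine genes Tnf and Il1a had none, and neither had the regulators Nfkb1, Rela and Nlrp3. Interferon response had 2 of 25, both receptor chains, Ifnar1 (21, 18 and 25 tags) and Ifngr1 (48, 25 and 55 tags), and Irf1 and Irf3 had none. TGF-beta and remodelling had 3 of 20, Tgfbr1, Smad2 and Skil, lipid handling 3 of 21, with Npc2 and Insig1 among them, hypoxia and glycolysis 3 of 21, Pfkp, Pkm and Pdk1, and lysosome and autophagy 5 of 23, Ctsl, Ctsz, Atp6v0d1, Gabarap and Atg5. Among genes with a naive boundary region the shares were 30.0, 23.1, 21.4 and 33.3% in that order and 18.2% for interferon response. Each interval held 35.7%, and the intervals over all genes of a list held 12.4%. These lists are therefore not shown to stand apart.

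**Figure D5:**
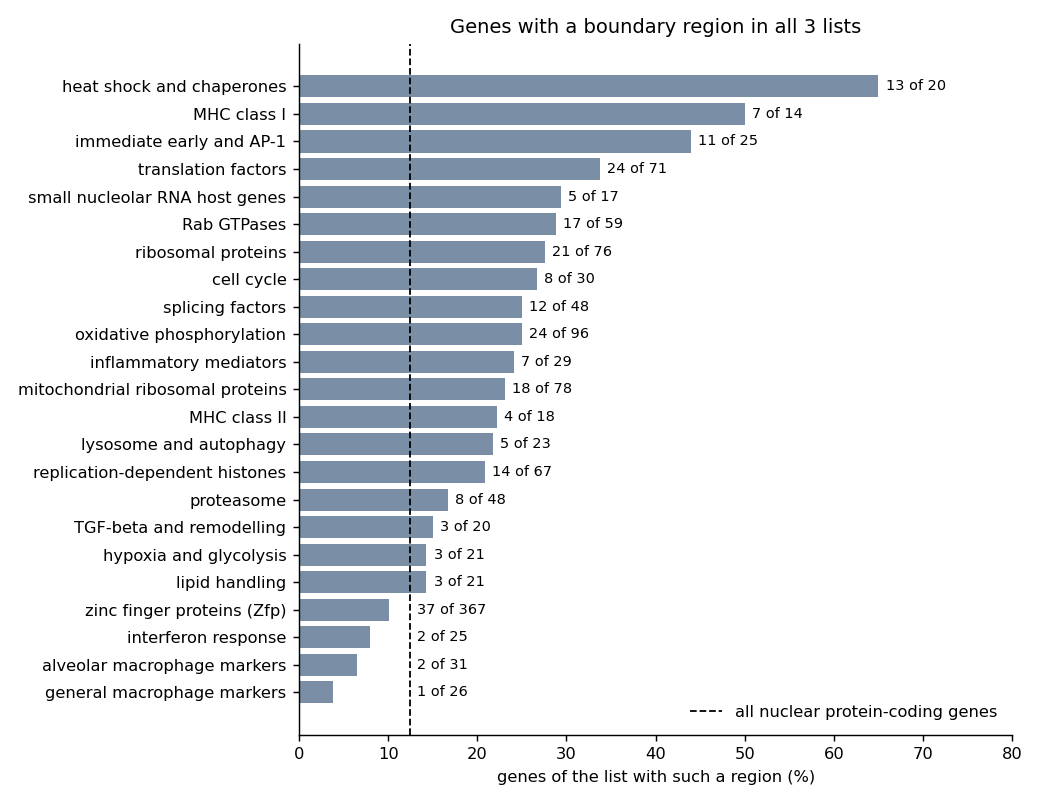
Share of the genes of each list with a shared boundary region within 1000 bp of an end (x axis, %), for the 23 lists with at least 5 genes that have a naive boundary region; numbers give the genes with a member of those in the annotation. The dashed line is the 12.4% of all nuclear protein-coding genes, and heat shock and chaperone genes have the highest share, 65.0%.

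Of 31 alveolar macrophage markers, 2 had a member (6.45%, 1.79 to 20.7), and so had 14.3% (4.01 to 39.9) of the 14 with a naive boundary region. Both intervals hold the shares of all protein-coding genes, 12.4% and 35.7%, so the list is not shown to stand apart. Cebpa, a myeloid transcription factor gene (chr7:35118512-35119600), had 46 tags at day 15, 22 at day 30 and 38 in the naive list, and Bhlhe40, a repressor that supports alveolar macrophage self-renewal (chr6:108659374-108659799, 830 bp from an end of the gene), 23, 16 and 32 tags. Csf2ra, Csf2rb, Cebpb, Spi1, Lpl and Atp6v0d2 had boundary regions with day 15 and naive peaks and none at day 30, Csf2ra with 23 tags at day 15 and 24 in the naive list and Spi1, the PU.1 gene, with 19 and 14 tags. Pparg, the regulator that defines these cells, Fabp5, Ear2, Itgax and Cidec had a naive peak alone, Pparg with 9 tags, and Perp had 12 tags at day 30 and 12 in the naive list. Mrc1, Ctsk and Slc7a2 had a peak in a tumour list alone. The other 14, Car4, Siglecf, Marco, Chil3, Fabp4, Fabp1, Ear1, Bhlhe41, Krt79, Krt19, Plet1, Ear10, Cd9 and Abcg1, had none at either end. Accessibility of these genes away from their ends is not covered by this count.

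General macrophage markers had 1 member of 26 genes (3.85%, 0.68 to 18.9), Cd68 (25, 13 and 21 tags at day 15, at day 30 and in the naive list), in a region that also lies near Eif4a1, while Spi1 and Csf1r had none. Of the 13 with a naive boundary region the share was 7.69% (1.37 to 33.3). That interval lies below the 35.7% of all such genes and rests on 1 gene with a member. The comparison was not matched for naive strength, with which membership went, so the list is not shown to stand apart. Naive pileups of the 13 ran from 10 tags at Fcgr1 to 31 at Cd14, beside a median of 28 in all members. Markers of cells that a sort could carry along had few members, as the macrophage markers had, so these counts do not tell cell types apart. T cell, B cell, endothelium and lung epithelium or tumour markers had 0 members of 10, 8, 7 and 12 genes, and of all these 37 genes only 1 T cell gene had a naive boundary region. Monocyte-derived and interstitial macrophage markers had 1 of 15, Klf2, which is also an immediate early gene, and neutrophil markers 1 of 8, S100a8 (17, 12 and 13 tags), while S100a9 and Ly6g had none.

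Few members lay away from protein-coding genes, 134 of 2373 (5.65%, 4.79 to 6.65), against 10.3% (9.30 to 11.4) of the boundary regions with day 15 and naive peaks alone and 15.1% (13.6 to 16.7) of those with a naive peak alone. Of the 134, 108 were near a long noncoding RNA gene and 7 near a tRNA gene. In all, 24 of 408 nuclear tRNA genes (5.88%, 3.98 to 8.60) had a member, among them a cluster of n-TAagc14, n-TYgta1, n-TYgta2 and n-TRacg3 (chr3:19628098-19629323) with 42 tags at day 15, 23 at day 30 and 54 in the naive list. The members with most genes held small RNA hosts, such as the region of Glrx5 and Snhg10 (55, 28 and 50 tags). The highest pileups of all belonged to 2 regions of the mitochondrial genome, with 356, 266 and 358 tags and 349, 280 and 356 tags. Among nuclear members, Rn18s-rs5, a pseudogene related to the 18S ribosomal RNA (chr17:39843176-39846744), had 182 tags at day 15, 190 at day 30 and 112 in the naive list. These regions were chosen after their values were seen, and whether reads from ribosomal or mitochondrial DNA pile up there was not tested.

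The members were unevenly spread over chromosomes. Of naive boundary regions, 31.1% on the autosomes were members (2348 of 7554, 30.1 to 32.1), between 25.2% on chromosome 19 (20.4 to 30.6) and 41.3% on chromosome 18 (34.8 to 48.1). On the X chromosome it was 11.3%, 23 of 203 (7.67 to 16.4). Naive strength differed little, with a median naive pileup of 16 tags on X and 18 on autosomes. In deciles 6 to 8 of naive strength, 2 of 23, 1 of 23 and 4 of 26 X regions were members, beside 27.4, 38.6 and 47.1% on the autosomes. The share of peaks on X was 1.59% at day 15 (1.37 to 1.85), 1.10% at day 30 (0.802 to 1.52) and 2.24% in naive mice (2.01 to 2.49), each over its whole list, and the Y chromosome had 0 peaks at day 15, 0 at day 30 and 1 in the naive list. No source used here gives the sex of the mice, and its part in this was not tested.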

How the data were processed

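ATAC-seq of sorted alveolar macrophages was available as 1 peak list for each of 3 groups of 4, 3 and 4 samples. The tools named for them are Bowtie2 2.3.4.1 and MACS2 2.1.1, with mm10 as build, per the submitters' processing notes. Filters, transposase shifts and pooling of reads are not given in the sources used here, and the lists have no header. The deposited columns are a score, the fold over background (a ratio), p-values and q-values written as −log10 by the authors' peak caller, and a summit offset. Each was checked on the values. The authors' values were used to rank peaks within a list.

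Whole-number summit pileups and local backgrounds were solved for, such that (pileup + 1) / (background + 1) equals the fold and the upper Poisson tail gives the p-value, and 100% of peaks matched within 0.001 in −log10 p. The most frequent lowest background of a list gave its depth, assuming 200 bp tags, and scaled excess is the pileup minus that level, divided by it. The recovery was tested on simulated data.

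Gene ends came from a RefSeq table of GRCm38.p6 (49980 genes). Strand and sequence came from RefSeq promoter windows of 27025 genes, and genes without such a window have no strand here. CpG-rich means an observed over expected ratio above 0.6. Python 3.11.15, pandas 2.3.3 and scipy 1.17.1 were used. Coordinates are 1-based. No test between conditions was run, so depth of the samples enters only as the tags per 10 kb of each list.

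The members, gene lists, motifs and alternatives were chosen with earlier results of these data known. Named regions are those of highest naive −log10 p, of highest and lowest ratio, nearest to the limits of the rule and with most genes, and the first genes of each list with and without a member, with the alveolar macrophage list in full.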

Additional observations from a re-analysis of the deposited data

How the results depend on the processing

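No paired analysis was possible because each group has 1 list and no values per sample, and for the same reason no replicate could be left out. Of 53 recomputed main values, 27 stayed within the interval of the reported value, or within 1.5 times for a count, and 26 moved; none turned in direction. Counting regions, lists cut to equal length by −log10 p left 1398 members, 56.3% of naive boundary regions, 7.54% of protein-coding genes and 146 listed genes. Leaving out peaks of high local background (over 3 times the list's level) left 1553, 23.7% and 8.20%, with pileup ratios of 0.418 for day 15 over naive, 0.291 for day 30 over naive and 0.695 for day 30 over day 15. A limit of 500 bp gave 32.1% of naive boundary regions and 11.8% of genes, one of 2000 bp 29.1% and 13.3%, and ends of protein-coding genes alone 32.1%. The share near 2 or more genes was 33.9% at 500 bp and 22.8% with protein-coding genes alone. Without depth scaling the 3 pileup ratios, in the order above, were 0.940, 0.564 and 0.596, and scaled by shared regions away from gene ends 0.985, 0.952 and 0.960, since those regions were lower by nearly as much. Members below the median naive strength had summit distances of 43 bp at day 15 and 59 bp at day 30 from the naive summit. Promoters of all genes near a member had a median CpG ratio of 0.827, and CCAAT, in an alternative chosen after seeing the data, in 48.0%. Of 92 values of single lists or features, 20 moved, most of them counts in lists of equal length, where alveolar macrophage markers had 1, heat shock and chaperone genes 7 and immediate early genes 3 members. The cause of these moves was not tested beyond the smaller or larger sets that the settings make. A region absent from the day 30 list was not called there, which does not show that it was closed. The background level was 82.2 tags per 10 kb at day 30 and 39.2 in the naive list, although the day 30 list was shorter. Why it was shorter was not tested.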

Other observations

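Noncoding genes other than tRNA genes were also found at shared boundary regions. Such a region lay within 1000 bp of an end of 426 of 12727 long noncoding RNA genes (3.35%, 95% Wilson interval 3.05 to 3.67), 28 of 1228 miRNA genes (2.28%, 1.58 to 3.28) and 23 of 1340 small nucleolar RNA genes (1.72%, 1.15 to 2.56). Many of these genes lie beside or within a protein-coding gene, whose start can be the accessible site. Among the members near most genes was that of Slc3a2, an amino acid transporter chain, and Snhg1, a small nucleolar RNA host gene (chr19:8723146-8723573), with 25 tags at day 15, 15 at day 30 and 16 in the naive list. Zbtb37 had 29, 18 and 24 tags in the same order (chr1:161034446-161035275).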
